A study of Mus musculus with 6 samples.

Results

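Fragments of mitochondrial tRNAs were measured in mouse hippocampus, both in RNA pulled down with phosphorylated tau and in the RNA left in the supernatant. A fragment was included when its name on the authors' deposited table began with mt- and contained tRF or tiRNA, which gave 51 of 2380 named RNAs. The choice used names alone. The 51 comprised 11 5'tiRNAs, 4 3'tiRNAs, 26 tRF5, 6 tRF3 and 4 tRF-1, with no fragment of another type. They came from 19 of the 22 mitochondrial tRNAs, with 7 fragments of tRNA-Gln, 6 of tRNA-Ser (TGA), 5 of tRNA-Lys and 4 of tRNA-Leu (TAA), and with none named from tRNA-Asp, tRNA-Glu or tRNA-Thr. Each fragment was read by 1 probe.

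Tissue was hippocampus of wild-type (WT) mice and of PS19 mice, which carry a transgene for human tau with the P301S mutation, with 3 arrays per genotype. In the PS19 line the transgene is driven by the prion protein promoter, so mutant human tau is made beside the mouse's own tau. Homogenates were crosslinked with UV light, and RNA bound to tau was collected with beads carrying an antibody to the pS396 phosphorylated form of tau, which accumulates in tau aggregates. This CLIP RNA was labelled with Cy5 and the unbound supernatant RNA of the same tissue with Cy3, 1 ug each, and both were hybridised to 1 array. Age, sex, number of animals per array and a pull-down without antibody are not given in the labels used here. Where nothing says that arrays came from separate animals, p-values measure only the spread between these arrays.

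Mitochondrial tRNAs are encoded in the mitochondrial genome and are cut out of long transcripts of both strands, by RNase P at the 5' end and RNase Z at the 3' end. Further cleavage gives fragments: tiRNAs are cut in the anticodon loop, for instance by angiogenin under stress, tRF5 begin at the 5' end of the mature tRNA, and tRF3 end at its 3' CCA. A tRF-1 is the piece behind the RNase Z cut, which in the packed mitochondrial genome already belongs to the next gene. In mouse RefSeq the gene after TrnF is mt-Rnr1, the small ribosomal RNA, the gene after TrnR is ND4L, a subunit of complex I, and the gene after TrnH is TrnS2. Of the fragments, 28 came from 12 tRNAs encoded with the heavy strand and 23 from 7 encoded with the light strand.

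Signals are given as log2 levels, that is, the log2 processed signal scaled to each array's 75th percentile, taken in each channel over the RNAs detected on every array (550 in CLIP, 1703 in supernatant). The CLIP and supernatant scales therefore have different zero points, and probes differ in brightness, so levels are compared here for 1 fragment between arrays and not between fragments. The processed signals had already been dye-normalised on each array, so the CLIP and supernatant levels of an array are not independent. Between 10.6% and 49.4% of all RNAs on an array were well above background in CLIP and 35.5% to 63.2% in supernatant. WT 2 and PS19 1 shared a scan, as did PS19 2 and PS19 3, and WT 1 and WT 3 were scanned alone. CLIP signals correlated at 0.974 and 0.953 across RNAs within the shared scans and at 0.644 to 0.822 between all other arrays, so genotype is partly tied to the scan. Of 11 named arms of neuronal microRNAs, 10 were well above background on at least 3 arrays in supernatant, and the 10 with a value on all 6 arrays had summed levels on a linear scale of 2.83 to 3.22 in WT and 2.89 to 3.45 in PS19. The summed supernatant level did not overlap between genotypes for 2 arms of oligodendrocyte microRNAs, at 0.155 to 0.342 in WT and 0.353 to 0.438 in PS19. Nor did it for 2 arms of erythrocyte microRNAs, at 0.166 to 0.477 in WT and 0.54 to 0.68 in PS19. For 4 arms of choroid plexus microRNAs it was 6.41 to 13.5 in WT and 7.44 to 13.1 in PS19, and for the 1 named arm of microglia and leukocytes 2.24 to 7.33 and 2.52 to 2.92. The part of these cell types in the results was not tested.

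All 51 fragments were well above background on at least 3 arrays of both channels, and so all were tested. In CLIP 7 of them were well above background on all 6 arrays and 18 on only 3. In supernatant 23 were so on all 6. By array, CLIP detected 8, 50 and 24 fragments in the order WT 1 to WT 3, and 50, 39 and 44 in the order PS19 1 to PS19 3. The supernatant detected 50, 50 and 45 on WT 1 to WT 3 and 51, 29 and 42 on PS19 1 to PS19 3. The 2 arrays with nearly every fragment in CLIP were the pair that shared a scan, 1 of each genotype. Since 1 ug of RNA was labelled per channel, fewer fragments per cell and a different makeup of the RNA pool cannot be told apart.

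**Figure D1:**
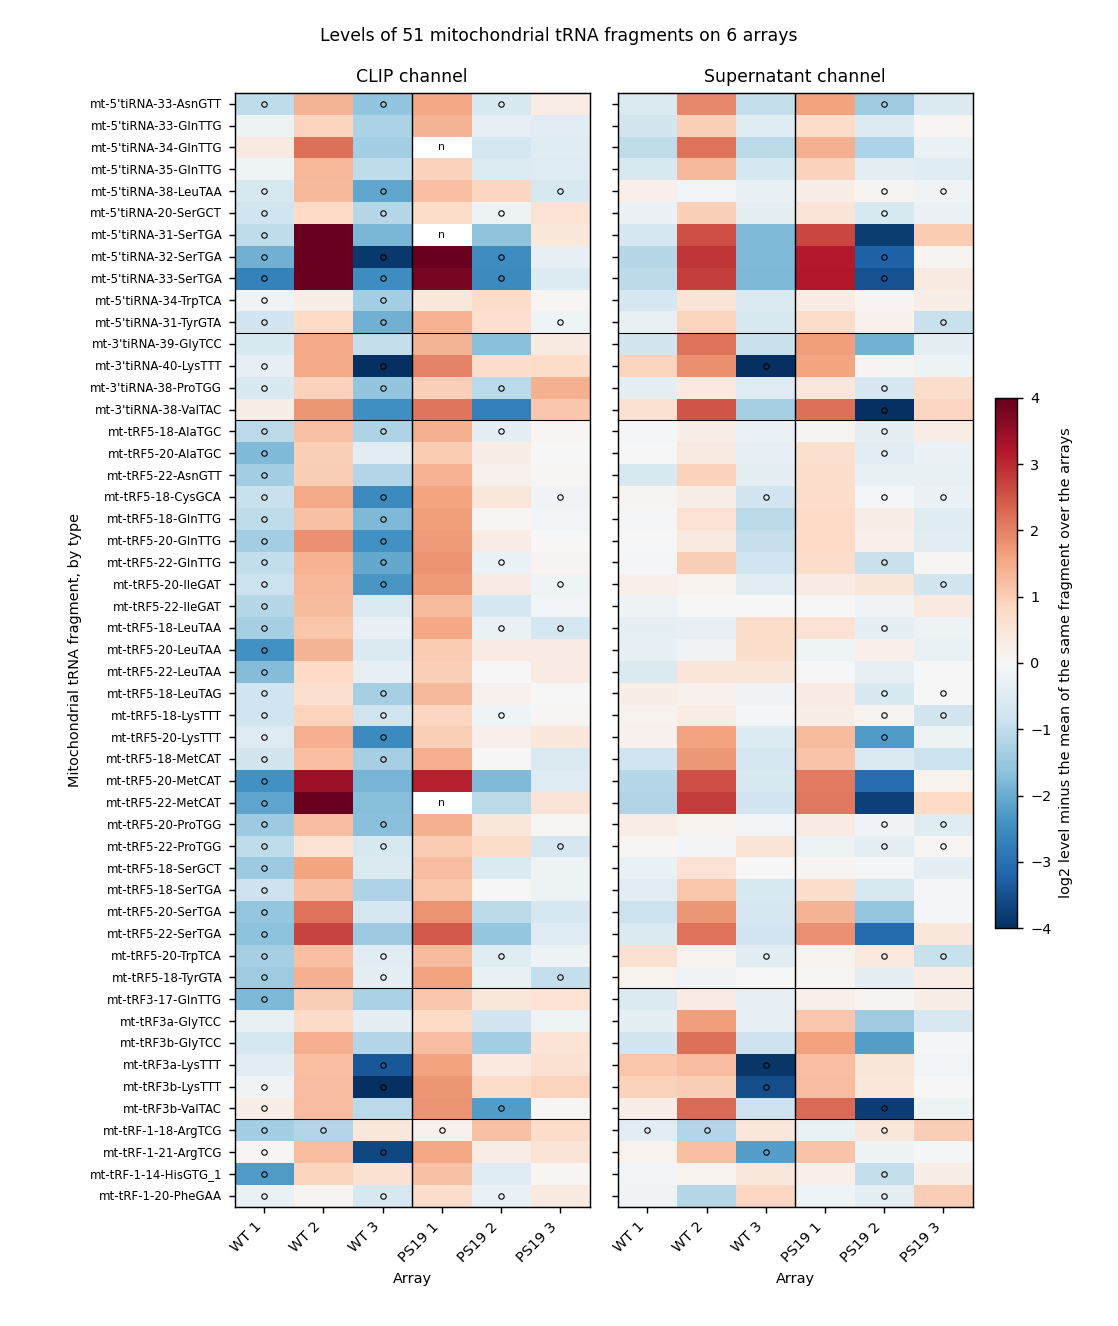
Each row is 1 of the 51 fragments and each column 1 array, with the CLIP channel left and the supernatant right; colour gives the log2 level minus the mean of the same fragment over its arrays (colours end at 4 either way), circles mark spots not well above background and n marks 3 spots left out as outliers. The dark red cells of the Ser (TGA) and Met fragments lie on WT 2 and PS19 1, and the dark blue cells of the Lys 3' fragments lie on WT 3.

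Many fragments shared the array on which they were highest or lowest. In supernatant, 39 of the 51 (76.5%) were highest on WT 2 or PS19 1, against 26.8% of all 3727 RNAs tested and 38.0% of 757 fragments of nuclear tRNAs. PS19 2 held the lowest supernatant level of 25 fragments (49.0%), against 10.5% of all RNAs and 7.13% of nuclear fragments. Many of the 51 overlap in sequence, so these are counts of probes and not of independent molecules, and no test was made on them. PS19 2 shared its scan with PS19 3, which held the lowest level of only 7 fragments. In CLIP, 48 of the 51 (94.1%) were highest on WT 2 or PS19 1, against 78.1% of all 2356 RNAs tested there.

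The longer 5' fragments of tRNA-Ser (TGA), which reads UCN codons and is encoded on the light strand, were among the fragments with the widest supernatant ranges. In supernatant, mt-5'tiRNA-31-SerTGA stood at 0.50, 3.75 and -0.58 on WT 1 to WT 3 and at 3.84, -2.62 and 2.20 on PS19 1 to PS19 3. The genotypes overlapped throughout, and the highest and the lowest array were both PS19. The other 5'tiRNAs of this tRNA, 32 and 33 bases long, kept that order at both ends, although on PS19 2 they were not well above background. The range over the arrays was wider for the longer fragments: it was 1.75 for mt-tRF5-18-SerTGA, 3.32 for mt-tRF5-20-SerTGA and 5.29 for mt-tRF5-22-SerTGA, against 6.46, 6.41 and 6.70 for the 5'tiRNAs of 31, 32 and 33 bases. The median range over all RNAs tested in supernatant was 1.58.

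The same held for the 5' fragments of tRNA-Met, the only mitochondrial tRNA for methionine, which serves both starting and elongating ribosomes. In supernatant, mt-tRF5-22-MetCAT stood at -0.02, 3.97 and 0.42 in WT and at 3.28, -2.57 and 1.96 in PS19. Its range of 6.54 compared with 5.65 for mt-tRF5-20-MetCAT and 2.58 for mt-tRF5-18-MetCAT. In CLIP, mt-tRF5-20-MetCAT stood at -5.73, 0.11 and -5.17 in WT and at -0.22, -5.08 and -3.82 in PS19. Again WT 2 and PS19 1 lay far above the other 4 arrays. Over all tRF5 in the set, the median supernatant range was 1.08 for 10 fragments of 18 bases, 1.5 for 9 of 20 bases and 1.55 for 7 of 22 bases. In nuclear tRF5 it was 1.30, 1.43 and 1.20 for the same lengths. Whether the widening with length differs between tRNAs was not tested.

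For fragments of tRNA-Gln, the range did not widen with length in this way. In supernatant it was 1.89, 1.73 and 1.86 for the tRF5 of 18, 20 and 22 bases and 1.70, 3.39 and 1.99 for the 5'tiRNAs of 33, 34 and 35 bases. Nor did it widen for the tRF5 of tRNA-Leu (TAA), at 1.14, 1.01 and 1.06 for the same lengths. For tRNA-Ile it was 1.22 at 20 bases and 0.61 at 22. From 18 to 20 bases it rose in tRNA-Lys (1.02 and 3.86) and tRNA-Ala (0.67 and 1.06). For tRNA-Pro it was 0.8 at 20 bases and 0.89 at 22. The Gln 5'tiRNAs were among the fragments with the steadiest detection, well above background on all 6 arrays in both channels. In CLIP, mt-5'tiRNA-33-GlnTTG stood at -2.48, -1.40 and -3.56 in WT and at -0.94, -2.61 and -2.74 in PS19. The Gln 3' fragment, mt-tRF3-17-GlnTTG, varied little in supernatant, from -0.62 on WT 1 to 0.31 on WT 2, with all PS19 arrays between these.

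**Figure D2:**
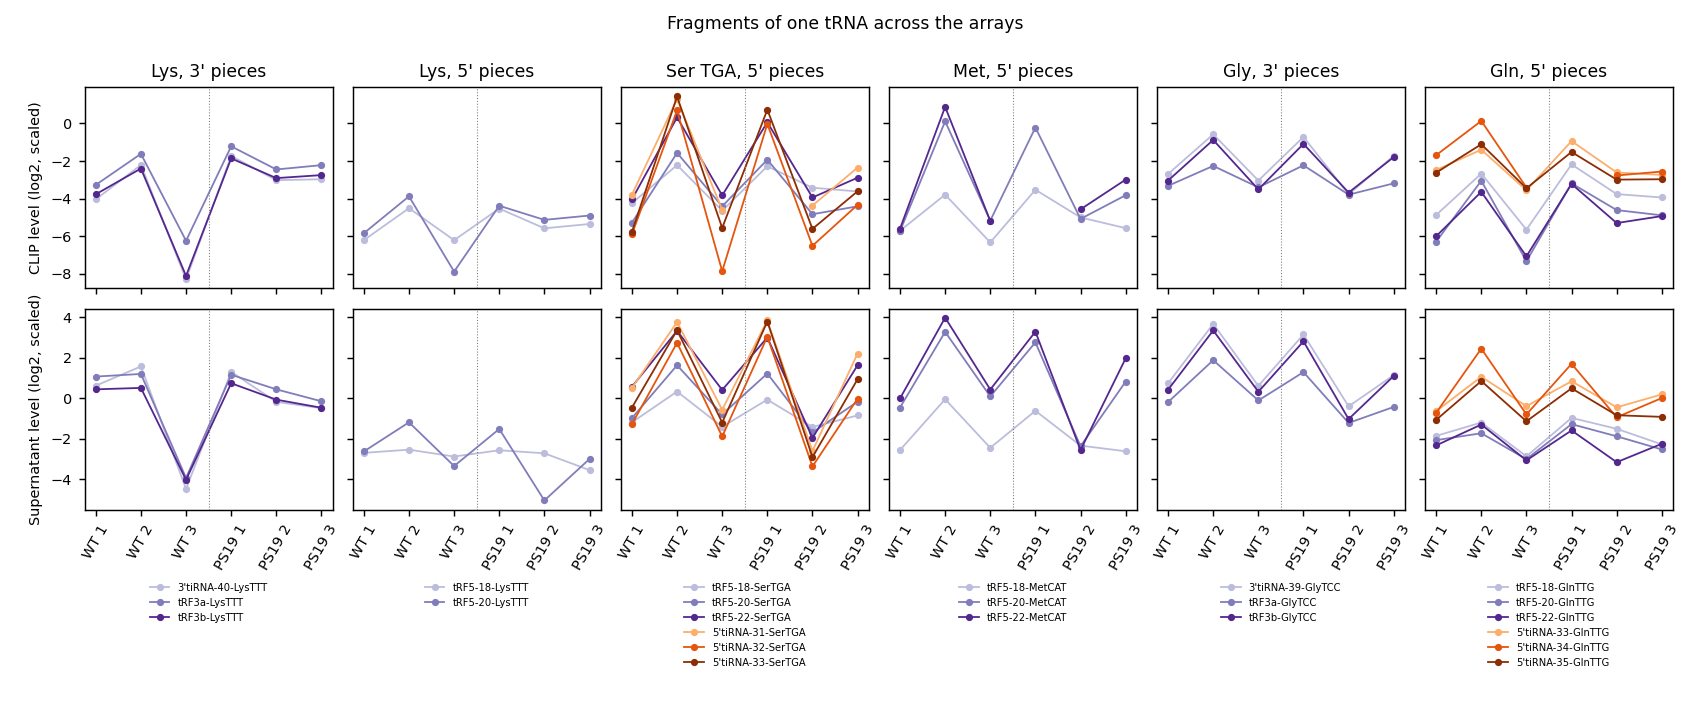
Log2 level on each array for fragments of 5 mitochondrial tRNAs, CLIP in the upper row and supernatant in the lower, with the dotted line between WT and PS19 arrays and 1 line per fragment. Lys 3' fragments dip on WT 3, the longer Ser (TGA) and Met fragments peak on WT 2 and PS19 1, and the 18-base tRF5 of the same tRNAs run flatter.

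Fragments from the 3' end of tRNA-Lys, the tRNA mutated in most human MERRF disease, were low on 1 array. In CLIP, mt-3'tiRNA-40-LysTTT stood at -4.04, -2.21 and -8.29 on WT 1 to WT 3 and at -1.73, -3.02 and -2.97 in PS19. In supernatant it stood at 0.61, 1.56 and -4.49 in WT and at 1.29, -0.19 and -0.50 in PS19. WT 3 lay far below the other 5 arrays in both channels, and there the probe was not well above background. Both shorter 3' fragments did the same, mt-tRF3a-LysTTT with a supernatant level of -3.95 on WT 3 against -0.16 or more elsewhere, and mt-tRF3b-LysTTT with -4.04 against -0.48 or more. The 5' fragment mt-tRF5-18-LysTTT had a supernatant level of -2.89 on WT 3, within its range of -3.56 to -2.55 on the other arrays. The longer mt-tRF5-20-LysTTT was lowest on PS19 2 in supernatant, at -5.06, and on WT 3 in CLIP, at -7.88. The 3 probes for 3' fragments share the 3' end of the tRNA and are not independent.

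The trailer fragment mt-tRF-1-21-ArgTCG, from behind tRNA-Arg where ND4L follows, was also lowest on WT 3, as many RNAs were. Its supernatant level was -1.65, -0.58 and -4.0 in WT and -0.65, -2.00 and -1.86 in PS19. The shorter mt-tRF-1-18-ArgTCG, named from the same tRNA, had levels of -3.72, -4.48 and -2.86 in WT and -3.56, -2.86 and -2.33 in PS19, and so did not share the dip on WT 3. The other trailers, mt-tRF-1-14-HisGTG_1 and mt-tRF-1-20-PheGAA, ranged over 1.38 and 2.10 in supernatant.

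The 3' fragments of tRNA-Gly and tRNA-Val followed the Ser (TGA) and Met fragments. In supernatant, mt-3'tiRNA-39-GlyTCC stood at 0.73, 3.66 and 0.60 in WT and at 3.14, -0.41 and 1.13 in PS19. For mt-3'tiRNA-38-ValTAC the values were 1.56, 3.45 and -0.39 in WT and 3.13, -3.93 and 1.80 in PS19, the widest supernatant range of the 51 at 7.37. In both, WT 2 and PS19 1 were the highest and PS19 2 the lowest, and the Val probe was not well above background on PS19 2. The tRF3 of these tRNAs, mt-tRF3a-GlyTCC, mt-tRF3b-GlyTCC and mt-tRF3b-ValTAC, had the same highest and lowest supernatant arrays.

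Full-length mitochondrial tRNAs were named for only 3 tRNAs. The parent chrM.tRNA17-SerTGA had supernatant levels of -0.49, 1.89 and -0.95 in WT and 2.68, -1.54 and 1.35 in PS19. The parent chrM.tRNA5-MetCAT stood at -1.45, 1.11 and -4.47 in WT and at 0.70, -5.10 and -2.15 in PS19. Both were highest on WT 2 and PS19 1 and lowest on PS19 2, as their longer fragments were. By contrast chrM.tRNA15-ProTGG was highest on WT 1, at 4.61, with 1.63 and 1.29 on the other WT arrays and 1.37, 0.99 and 2.61 in PS19. A probe for a parent may also bind its fragments, and how far this occurred was not tested.

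In the tau-bound RNA, no mitochondrial tRNA fragment passed the test between PS19 and WT. The CLIP level of the median RNA was 0.85 higher in PS19, so differences are given relative to it, while each test is of the difference before that shift. The 51 fragments had a median of -0.12 and a range of -1.86 to 1.42, with 18 above and 33 below 0. That median was -0.24 without WT 1, 0.0 without WT 2, -0.21 without WT 3, -0.29 without PS19 1 and 0.07 without PS19 2, so single arrays set its sign. By type the medians were -0.12 for 5'tiRNAs, -0.28 for 3'tiRNAs, -0.12 for tRF5, -0.01 for tRF3 and 0.11 for tRF-1. The 411 nuclear tRF5 had a median of 0.31, with 297 above and 114 below 0. The medians of the other nuclear types were nearer to 0, at 0.01 for 5'tiRNAs, 0.17 for 3'tiRNAs and 0.09 for tRF3. In limma none of the 2356 RNAs tested passed (0.0%) a Benjamini-Hochberg adjusted p of 0.05, with 0.773 as the lowest value. At an unadjusted p under 0.05, 2 fragments (3.92%) were higher in PS19, against 1.91% of all RNAs, and none was lower, against 0.255%. No fragment had genotypes that did not overlap, against 4.33% of all RNAs higher and 0.934% lower in PS19.

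Both fragments at the unadjusted threshold came from the 3' end of tRNA-Lys. The SE of the CLIP fit was common to all RNAs with the same number of values. It and the unadjusted p therefore do not measure the spread of the single fragment. The SD over the arrays was 3.12 in WT and 0.73 in PS19 for mt-3'tiRNA-40-LysTTT, and 2.98 and 0.57 for mt-tRF3b-LysTTT. The difference was 2.27 (SE 1.04, limma adjusted p = 0.773) for mt-3'tiRNA-40-LysTTT and 2.25 (SE 1.04, adjusted p = 0.773) for mt-tRF3b-LysTTT, or 1.42 and 1.40 relative to the median RNA. Without WT 3 these became 0.09 and 0.11. Without WT 3 the value for mt-tRF3a-LysTTT moved from 0.89 to 0.02, and that for mt-tRF-1-21-ArgTCG moved from 0.73 to -0.31. The values of these 4 fragments thus rested on WT 3.

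At the low end, mt-5'tiRNA-34-GlnTTG differed by -1.86 and mt-5'tiRNA-31-SerTGA by -1.84 relative to the median RNA, with SE 1.16 and adjusted p = 0.773 for both in limma. For mt-tRF5-22-MetCAT the value was -1.33 (SE 1.16, adjusted p = 0.831). Each of these 3 lacked a CLIP value on PS19 1, where its spot was an outlier and was dropped from the fit, and WT 2, the other array of that scan, was its highest. With the outlier spots kept, the values were -1.0, -0.51 and -0.04. The next Gln 5'tiRNA, mt-5'tiRNA-35-GlnTTG, had all its values and differed by -0.95 (SE 1.04, adjusted p = 0.953).

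Within the scan that held both genotypes, PS19 1 minus WT 2 could be formed for 48 fragments in CLIP. Relative to the median RNA it had a median of 0.02 and a range of -0.85 to 1.24, with 24 above and 23 below 0. The largest value, 1.24, was that of mt-tRF-1-18-ArgTCG. That fragment had CLIP levels of -6.94, -6.76 and -5.11 in WT and of -5.39, -4.41 and -4.83 in PS19, and was well above background on 1 WT array and 2 PS19 arrays. WT 1 and WT 2 were the lowest arrays, and WT 3 lay inside the PS19 range. Its difference between genotypes was 1.39 before the shift (SE 1.04, limma adjusted p = 0.773), or 0.54 relative to the median RNA. With the scan as a random block it was 1.37 before the shift (SE 0.30, limma adjusted p = 0.047), in a fit where the median RNA moved by 0.17, and this was the only call of a fragment under any alternative. That fit had a correlation between arrays of a scan of 0.976, estimated from 2 shared scans.

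**Figure D3:**
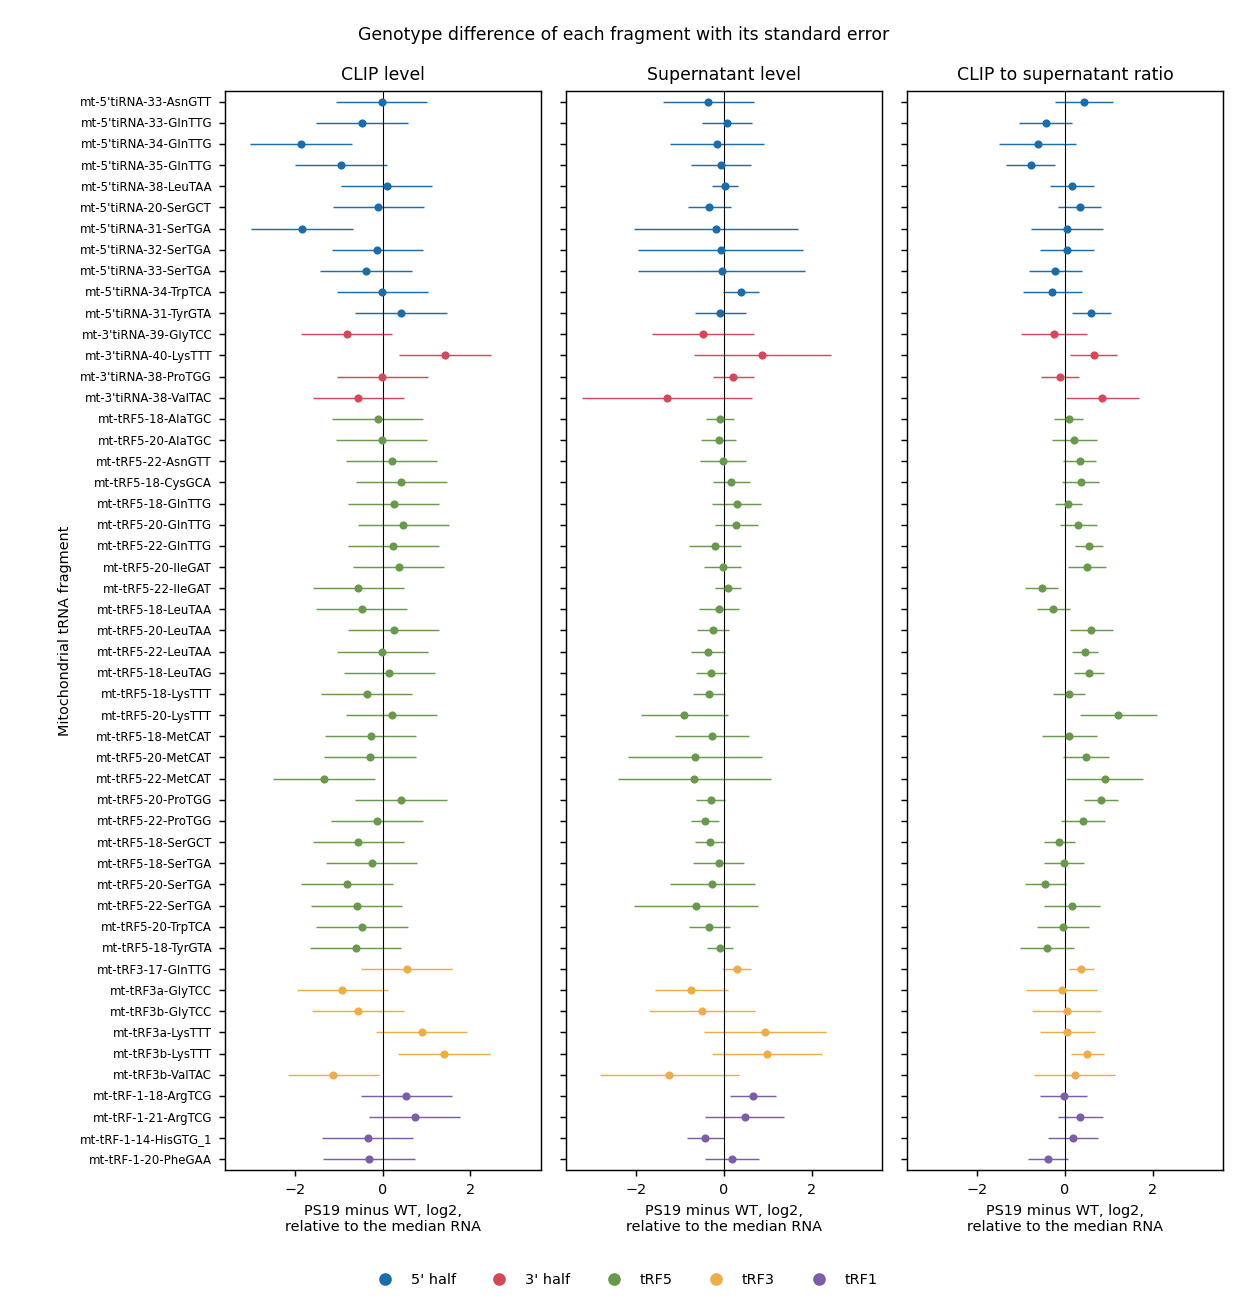
PS19 minus WT for each of the 51 fragments with its standard error, on the log2 scale relative to the median RNA, for the CLIP level, the supernatant level and the ratio of both; colour gives the fragment type. CLIP values run from -1.86 to 1.42 with standard errors of 1.04 or 1.16, which the fit shared between all RNAs with the same number of values. No fragment passed an adjusted p of 0.05 in any panel.

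In the unbound RNA the fragments did not pass the test either. The supernatant differences had a median of -0.12 relative to the median RNA, which itself moved by 0.10, and ranged from -1.30 to 0.99. That median was 0.31 without WT 2 and 0.25 without PS19 2, and -0.44 without WT 1, -0.42 without PS19 1 and -0.29 without WT 3, so its sign rested on single arrays. Of the 51, 15 lay above and 36 below 0, and among the tRF5 4 lay above and 22 below, where nuclear tRF5 had 308 above and 100 below. The other nuclear types were nearly balanced, with 108 above and 115 below for 5'tiRNAs, 25 and 21 for 3'tiRNAs and 40 and 40 for tRF3. None of 3727 RNAs passed (0.0%), the lowest adjusted p in limma was 0.928, and no fragment reached an unadjusted p under 0.05, against 1.74% of all RNAs higher and 1.05% lower. None had genotypes that did not overlap, against 7.32% of all RNAs higher and 3.01% lower in PS19.

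The ends of the supernatant list were again the families with 1 extreme array. The highest were mt-tRF3b-LysTTT at 0.99 (SE 1.25) and mt-tRF3a-LysTTT at 0.94 (SE 1.39), and without WT 3 the former became -0.40. The lowest were mt-3'tiRNA-38-ValTAC at -1.30 (SE 1.94) and mt-tRF3b-ValTAC at -1.24 (SE 1.58), and without PS19 2 the latter became 0.36. Of the fragments with smaller p, the trailer mt-tRF-1-18-ArgTCG lay 0.67 above the median RNA (SE 0.53), mt-5'tiRNA-34-TrpTCA 0.39 above it (SE 0.40), mt-tRF3-17-GlnTTG 0.29 above it (SE 0.34) and mt-tRF5-22-ProTGG at -0.43 (SE 0.31), each with an adjusted p of 0.928 in limma. In the shared scan, 16 fragments lay above and 35 below 0, with a median of -0.18.

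Relative to the supernatant, the tau-bound signal of the fragments did not pass the test between genotypes. The log2 ratio of CLIP to supernatant was centred on the median RNA tested on each array. PS19 minus WT had a median of 0.16 and a range of -0.78 to 1.21, with 34 above and 17 below 0. That median was -0.01 without PS19 2, 0.06 without WT 2, 0.28 without WT 3 and 0.31 without PS19 1. The 765 nuclear tRNA fragments tested leaned the same way, with a median of 0.11, 462 above and 303 below 0. None of 3971 RNAs passed (0.0%), with a lowest adjusted p of 0.993 in limma, and no fragment had an unadjusted p under 0.05, against 2.09% of all RNAs higher and 2.04% lower. In 3 fragments (5.88%) all PS19 ratios lay above all WT ratios, against 4.18% of all RNAs, and in none below, against 4.76%.

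Those 3 were mt-tRF5-18-LeuTAG, mt-tRF5-22-LeuTAA and mt-tRF3-17-GlnTTG, from both leucine tRNAs and tRNA-Gln. The ratio of mt-tRF5-22-LeuTAA was -0.51, -0.77 and -0.21 in WT and -0.18, 0.02 and -0.05 in PS19. The gap between the genotypes was narrow, and the difference of 0.43 (SE 0.30) had an adjusted p of 0.993 in limma. For mt-tRF3-17-GlnTTG the ratio was -0.57, -0.44 and -0.34 in WT and -0.25, 0.04 and -0.10 in PS19, and for mt-tRF5-18-LeuTAG 0.17, -0.04 and -0.02 in WT and 0.43, 1.07 and 0.19 in PS19. The largest difference, 1.21 relative to the median RNA for mt-tRF5-20-LysTTT, came with overlapping genotypes and a ratio of 2.37 on PS19 2 alone, where its supernatant probe was not well above background. The fragment of tRNA-Pro mt-tRF5-20-ProTGG differed by 0.82 (SE 0.38) and the Gln fragment mt-tRF5-22-GlnTTG by 0.54 (SE 0.32) relative to the median RNA. Like mt-tRF5-18-LeuTAG, the Pro fragment was well above background on only 1 WT array in CLIP and only 1 PS19 array in supernatant. On the other side stood mt-5'tiRNA-35-GlnTTG at -0.78 (SE 0.56), mt-tRF5-22-IleGAT at -0.53 (SE 0.38) and mt-tRF-1-20-PheGAA at -0.39 (SE 0.46), and all of these had an adjusted p of 0.993. The parent chrM.tRNA17-SerTGA had ratios of 0.29, -0.02 and 0.65 in WT and -1.20, -0.49 and -1.77 in PS19, all lower, with a difference of -1.46 (SE 0.41, adjusted p = 0.993). Of its 6 fragments, 3 had a difference above 0 and 3 below, from -0.45 to 0.16, and none had genotypes that did not overlap.

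Within each genotype the ratios leaned below 0. In WT they had a median of -0.38, with 15 fragments above and 36 below 0, and in PS19 a median of -0.20, with the same split. A value below 0 says that, after dye normalisation, a fragment was weaker in CLIP against supernatant than the median RNA of the array. It does not say that the fragment was absent from the pull-down. The lowess step had already centred the ratio at every intensity, so each fragment is in effect set against RNAs of like intensity. CLIP RNA was always in Cy5 and supernatant RNA in Cy3, with no dye swap, so dye bias of a probe cannot be told apart. In WT, 3 of 3971 RNAs passed (0.0755%) and in PS19 4 (0.101%), none of them a mitochondrial fragment, with lowest adjusted p-values among the fragments of 0.388 and 0.438 in limma. At an unadjusted p under 0.05, 10 fragments (19.6%) were lower in WT, against 3.65% of all RNAs, and 4 (7.84%) in PS19, against 3.83%. None was higher, against 4.38% in WT and 3.17% in PS19. In CLIP only 8 of the 51 fragments were well above background on WT 1 and 24 on WT 3. Many WT ratios thus used a CLIP signal near background. Of 765 nuclear tRNA fragments, 76 were lower and 22 higher in WT at that threshold, and 25 were lower and 8 higher in PS19. Nuclear fragments also leaned below 0, with 468 below and 297 above in WT and 414 below and 351 above in PS19. In WT the median moved to -0.22 with normexp. When arrays were centred on all RNAs it moved to -0.69, but the median of all RNAs tested moved as well, from -0.02 to -0.33. In PS19 the median of the fragments was -0.06 without PS19 1, -0.11 without PS19 3, -0.30 without PS19 2 and -0.04 with normexp.

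The ratio was below 0 on all 6 arrays for 9 fragments (17.6%), against 4.46% of all RNAs, and above 0 on all 6 for 1 (1.96%), against 4.96%. The 9 were mt-tRF5-20-MetCAT, mt-tRF5-20-SerTGA and the Ser (TGA) 5'tiRNAs of 32 and 33 bases, the Ser (GCT) fragments mt-tRF5-18-SerGCT and mt-5'tiRNA-20-SerGCT, mt-3'tiRNA-39-GlyTCC, mt-tRF3b-GlyTCC and mt-3'tiRNA-40-LysTTT. Of the 9, mt-3'tiRNA-40-LysTTT, mt-5'tiRNA-20-SerGCT and the Ser (TGA) 5'tiRNAs of 32 and 33 bases were well above background in CLIP on 1 WT array. The others were so on 2 or 3 WT arrays. For mt-tRF5-20-MetCAT the ratio was -1.88, -1.5 and -1.9 in WT and -1.36, -0.25 and -2.30 in PS19. Its WT mean of -1.76 (SE 0.37) had an adjusted p of 0.388 and its PS19 mean of -1.30 (SE 0.37) one of 0.519 in limma. For mt-tRF5-20-SerTGA the means were -0.90 (SE 0.33, adjusted p = 0.588) in WT and -1.37 (SE 0.33, adjusted p = 0.438) in PS19. The 1 fragment above 0 throughout was mt-tRF5-18-GlnTTG, with 0.38, 0.19 and 0.58 in WT and 0.41, 0.21 and 0.68 in PS19.

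By type, all 4 3'tiRNAs and all 6 tRF3 had a mean ratio below 0 in both genotypes. Their medians were -0.93 and -0.68 in WT and -0.56 and -0.44 in PS19. By array, the 3'tiRNA median was 0.01, -2.08 and -0.52 on WT 1 to WT 3 and -1.42, -0.62 and -0.27 on PS19 1 to PS19 3. The tRF3 median was -0.32, -1.82 and -0.13 in WT and -1.43, -0.16 and -0.26 in PS19. Both types were thus lowest on WT 2 and PS19 1, which shared a scan, and nearer to 0 on the other arrays. The nuclear 3'tiRNAs and tRF3 had medians of -0.43 and -0.30 in WT and -0.33 and -0.14 in PS19, and so also lay below 0. Among mitochondrial 5'tiRNAs, 7 of 11 were below 0 in WT and 9 of 11 in PS19. The 4 above 0 in WT were mt-5'tiRNA-34-TrpTCA, with a mean of 0.07, and the Gln 5'tiRNAs of 33, 34 and 35 bases, with 0.32, 0.84 and 0.87. The Gln means were carried by WT 1, with ratios of 1.55, 2.41 and 1.84, and on WT 2 all of them were below 0. In the 4 tRF-1, 3 of the 4 means were above 0 in WT and 2 of the 4 in PS19.

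**Figure D4:**
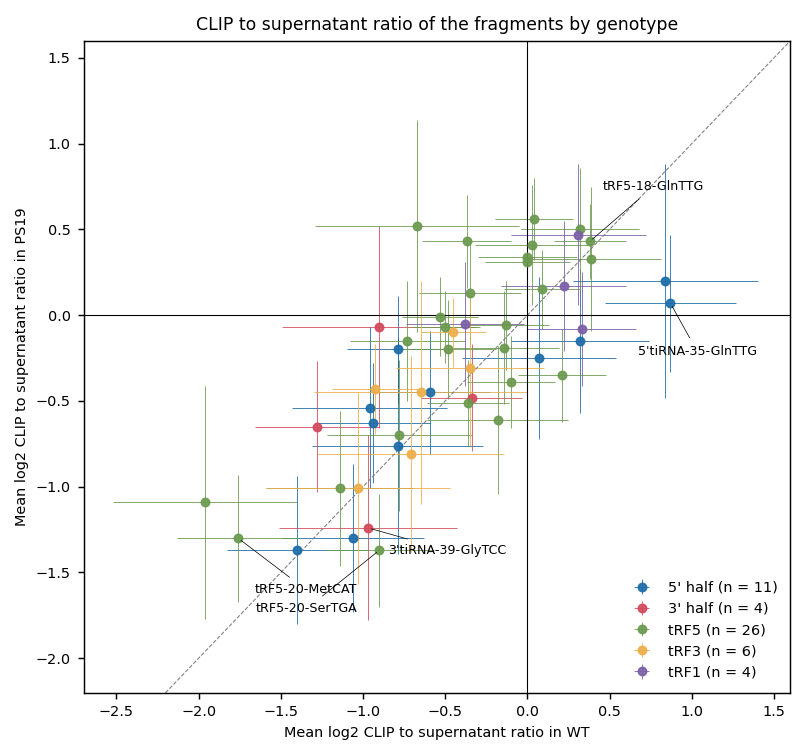
Mean log2 ratio of CLIP to supernatant of each fragment in WT (horizontal axis) against PS19 (vertical axis), with standard errors of the fit; the dashed line marks equal values and colour gives the type. Most points lie left of and below 0, with the Met and Ser (TGA) tRF5 at the low end and mt-tRF5-18-GlnTTG above 0 in both.

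The authors' deposited table compares CLIP signals of PS19 and WT for the same 51 fragments. Of these, 24 had in the authors' deposited table a log2 fold change above 0 and 27 below, from -1.07 to 1.47 with a median of -0.06. The lowest p-value there was 0.0651, for mt-tRF3a-LysTTT with a log2 fold change of 0.94 in the authors' deposited table, and the adjusted value was 0.999 for this fragment.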

How the data were processed

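Small RNA arrays of 6 hippocampus samples were analysed, 3 WT and 3 PS19, with CLIP RNA in red and supernatant RNA in green. The deposited scanner files hold intensity values. Per the file headers, Agilent Feature Extraction 11.0.1.1 subtracted background and then normalised the dyes on each array, first linearly and then by lowess, which centres the ratio at every intensity. In the authors' value table, log2 entries were the log2 red processed signal less a constant for the array. Medians of its columns were -3.77, -4.37, -3.20 (WT 1 to 3), -4.09, -3.28 and -3.50 (PS19 1 to 3). For every named RNA the authors' deposited table lists a p-value with its adjusted form beside the log2 fold change, whose direction, recomputed from the value table, is PS19 minus WT. What was crosslinked and pulled down follows the labels' protocols. The array grid names mm9 and the RefSeq table is of another build, so no coordinates are given.

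RNA names were linked to probes by matching the log2 fold change within 1e-09 and p within 1e-07; all 2380 names matched 1 of 557616 candidate probe sets. Outlier spots were dropped, no spot was saturated, and 8555 unnamed probes were tested singly. An RNA was tested if 3 or more of the 6 arrays showed it well above background (either channel for the ratio) and each genotype had at least 2 values. Tests used lmFit and eBayes of limma 3.58.1 in R 4.3.3, with 1 mean per genotype and Benjamini-Hochberg adjustment over all of them. In CLIP the fit gave all RNAs with the same number of values 1 common standard error. The requirement of 2 values and centring the ratio on tested RNAs were set after a first fit. The fits were also run on simulated data with independent errors between arrays. These lacked the correlation within scans, so they cannot show how the scans act on the results. Fragments named in the text are those with the highest mean signal per type and channel (2 each) and those with the smallest p per comparison and direction (up to 5, first those with genotypes that do not overlap), the fragments of 1 tRNA beside each other, and the full-length tRNAs; other names were chosen after their values were seen. The members and lists were chosen with earlier results of these data known. Alternatives covered background correction, scaling, filters, variance models, blocks and left-out arrays.

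The design text speaks of 3 pairs, but the numbers were not taken to pair samples. Same-numbered samples deviated together with correlations of -0.0752, -0.515 and 0.315 in CLIP and of 0.141, -0.431 and 0.464 in supernatant. WT 2 and PS19 1, with different numbers but 1 scan, reached 0.64 in CLIP, so these correlations cannot exclude pairs. The number of arrays limits the precision of every value.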

Additional observations from a re-analysis of the deposited data

How the results depend on the processing

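None of the 51 fragments passed an adjusted p of 0.05 in any comparison under any alternative, except mt-tRF-1-18-ArgTCG in CLIP with the scan as a random block (1 fragment). Calls over all RNAs were sensitive: in the CLIP comparison 5 passed with normexp, 36 with array weights, 18 with the scan as a random block and 0 to 2 when 1 array was left out, 2 of them without WT 3. For the ratio within WT, 0 passed when only RNAs well above background on all 6 arrays were tested, 0 with a variance trend, and 0 to 3 when 1 array was left out; normexp gave 3 RNAs lower in place of the 3 higher. Within PS19, 0 passed with normexp, with the stricter filter and with a variance trend, 2 with the scan as a random block, and 2 to 4 with 1 array left out. The median ratio of the fragments within WT, -0.38, was -0.60 without centring and -0.69 centred on all RNAs, an alternative added, like keeping outlier spots, after seeing the data. The zero point shifted in both, since the median of all RNAs tested, -0.02, became -0.24 and -0.33. With the replicate number as a block, 0 RNAs passed in each genotype comparison and the medians of the fragments stayed -0.12, -0.12 and 0.16; not every sample deviated with its own number. With 1 array left out these medians ran from -0.29 to 0.07 in CLIP, -0.44 to 0.31 in supernatant and -0.01 to 0.31 in the ratio. The CLIP median was 0.26 with no filter on dim RNAs, 0.02 with the fixed and 0.0 with the random scan block, -0.33 with the stricter filter, -0.21 with array weights and -0.03 with normexp; the supernatant median was -0.43 with array weights, -0.20 with the stricter filter, -0.18 with the fixed scan block and -0.06 with normexp; the ratio median was 0.35 with no filter on dim RNAs and 0.10 with the stricter filter and with the random scan block.

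The sign of some unadjusted single values turned. In CLIP, normexp gave 0.01 for mt-tRF3b-ValTAC and 0.01 for mt-5'tiRNA-35-GlnTTG, array weights -0.14 for mt-tRF-1-21-ArgTCG and 0.22 for mt-tRF5-22-MetCAT, the fixed scan block -0.03 for mt-tRF3-17-GlnTTG and 0.43 for mt-tRF3b-ValTAC, the random scan block 0.37 for mt-tRF3b-ValTAC. With 1 array left out, mt-tRF5-22-MetCAT reached 0.10 without WT 2 (lowest -2.25), and mt-tRF-1-21-ArgTCG ran from -0.31 to 1.38. In supernatant, normexp gave -0.18 for mt-tRF3-17-GlnTTG, -0.06 for mt-tRF3b-LysTTT, -0.05 for mt-tRF5-20-GlnTTG and 0.00 for mt-tRF5-22-ProTGG, array weights -0.13 for mt-tRF3b-LysTTT and -0.01 for mt-tRF5-20-GlnTTG, the fixed scan block -0.25 for mt-5'tiRNA-34-TrpTCA and -0.21 for mt-tRF3-17-GlnTTG. With 1 array left out, values ran from -0.03 to 0.51 for mt-tRF3-17-GlnTTG, -0.40 to 1.71 for mt-tRF3b-LysTTT, 0.00 to 0.55 for mt-tRF5-20-GlnTTG, -1.71 to 0.04 for mt-tRF5-20-LysTTT and -2.63 to 0.36 for mt-tRF3b-ValTAC. In the ratio between genotypes, normexp gave 0.10 for mt-tRF5-22-IleGAT, 0.28 for mt-5'tiRNA-35-GlnTTG, 0.26 for mt-tRF5-20-SerTGA and 0.55 for mt-5'tiRNA-33-GlnTTG; the fixed scan block gave -0.07 for mt-tRF5-20-ProTGG and 0.61 for mt-5'tiRNA-33-GlnTTG, which ran from -0.98 to 0.15 with 1 array left out. Within WT, normexp gave -0.25 for mt-5'tiRNA-35-GlnTTG, -0.06 for mt-tRF5-18-GlnTTG, -0.47 for mt-5'tiRNA-34-GlnTTG and 0.00 for mt-tRF-1-20-PheGAA, and mt-tRF5-20-TrpTCA ran from -0.02 to 0.92 with 1 array left out. The cause of these changes was not tested. On WT 1, where 8 fragments were well above background in CLIP, signal over background limits what CLIP can show.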
